A study of Rattus norvegicus and Mus musculus with 34 samples.

Results

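The effect of sensory nerve transection on the healing tissue was examined at day 7 across all genes. Lists of osteoblast, cartilage and osteoclast genes were not among those described, and single genes of these cells are named where a rule chose them or as a tissue marker. The comparison used 8 rats of the 34 samples in the series, 4 with the nerve intact and 4 with the nerve cut, and was set beside the same comparison at day 3 (7 rats) and day 14 (8 rats). In the sensory nerve+ group, wild-type male Sprague-Dawley rats received a periodontal bone defect on the cheek side of the mandible. In the sensory nerve− group, the same defect was combined with removal of a piece of the inferior alveolar nerve. The nerve had been exposed ahead of its entry into the canal of the mandible. All rats of both groups therefore carried the bone defect, and all received penicillin after surgery. The tissue is labelled as periodontal healing tissue of mixed cells, so that fewer cells of a type and less RNA per cell cannot be told apart in any value below. The 4 sensory nerve− rats of day 7 were deposited in a table without any sensory nerve+ rat, so that table and transection cannot be told apart.

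The inferior alveolar nerve carries sensory axons from the teeth, the periodontal ligament and the bone of the lower jaw. The cell bodies of most of these axons lie in the trigeminal ganglion, outside the tissue that was sampled, whereas the Schwann cells that ensheath the axons reside in the tissue. Their endings can release peptides, CGRP (calcitonin gene-related peptide) being the best known, which act on vessels, immune cells and bone cells. About a week after a bone injury, granulation tissue rich in macrophages and fibroblasts is being replaced by a young collagen matrix and woven bone.

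Library totals of the 8 rats lay between 15331439 and 18092134 expected counts, and the group means differed by 202749 counts (two-sided exact permutation test over 70 splits, p = 0.771). Of 20022 genes listed, 14716 passed the filter on low counts, and values below are CPM, the counts of a gene scaled to a common library size with TMM (trimmed mean of M values), or log2 fold changes (log2FC) of sensory nerve− over sensory nerve+ rats. The leukocyte gene Ptprc was detected at 62.5 to 426 CPM over the 8 rats, the fibroblast gene Col1a1 at 5514 to 23538 CPM, the endothelial gene Pecam1 at 114 to 386 CPM and the osteoblast gene Ibsp at 39.4 to 1578 CPM, so the labelled tissue held the cells of a healing bone wound. The Schwann cell gene Sox10 was at 0.369 to 4.55 CPM. The muscle gene Acta1 and the tooth gene Amelx were also present, at very different levels from rat to rat.

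No gene had a Benjamini-Hochberg adjusted p under 0.05 in edgeR's quasi-likelihood test (0 of 14716, 0%), and at an unadjusted p under 0.05 there were 215 genes (1.46%), 63 higher (0.428%) and 152 lower (1.03%) in the sensory nerve− group. The 1.46% is below the fraction of 0.05 that this threshold gives on average without any difference. The split by direction depended on the setting. It was 33 higher and 174 lower when scaled by the library total, 134 and 175 with DESeq2, 18 and 176 without sensory nerve+ rat 2, and 912 and 692, with more higher than lower genes, without sensory nerve− rat 1. DESeq2 called 1 gene of 14463 (0.00691%), the cartilage collagen Col2a1, with 309 genes (2.14%) at an unadjusted p under 0.05. The median log2FC of all tested genes was −0.01, and 48.8% of them were higher and 51.2% lower in the sensory nerve− rats. The 4 rats of a group were no closer to one another than to rats of the other group. Correlations of log2 CPM across the tested genes had a median of 0.921 over the 12 pairs within a group (0.844 to 0.972) and of 0.933 over the 16 pairs between groups (0.843 to 0.967). Genes are not independent replicates, so these correlations are given as a description.

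The largest differences ran between single rats. The first principal component of the 500 most variable genes held 44.6% of their variance and set sensory nerve+ rat 3 (score 52.7) against sensory nerve+ rat 4 (−33.9), sensory nerve− rat 4 (−27.7) and sensory nerve− rat 2 (−24.3). At the end of rat 3 lay genes of the enamel organ and tooth epithelium, among them the enamel matrix genes Amelx and Ambn, and at the other end genes of red cells, among them Alas2, the first enzyme of haem synthesis in erythroid cells, and Slc4a1, the anion exchanger of the red cell membrane. The second component (23.3%) set sensory nerve− rat 1 (−35.7) and sensory nerve+ rat 1 (−22.5) against sensory nerve− rat 4 (23.5) and sensory nerve+ rat 3 (23.2), with muscle genes such as Myh2, Myh7 and Ckmt2 at the end of sensory nerve− rat 1.

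**Figure D1:**
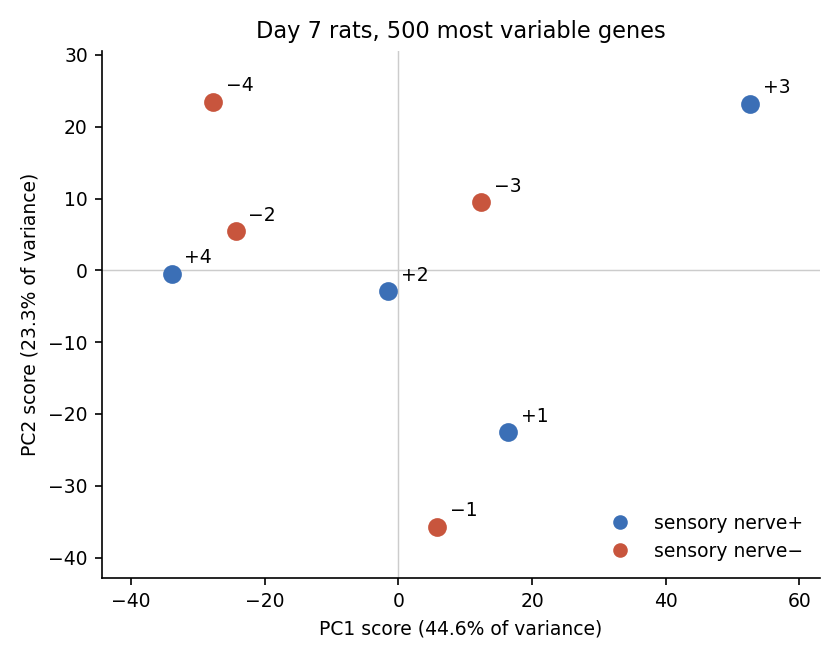
First and second principal component scores of the 8 rats of day 7, from log2 CPM of the 500 most variable genes, with sensory nerve+ rats in blue and sensory nerve− rats in red, numbered by replicate. The groups intermingle, and sensory nerve+ rat 3 lies alone at a score of 52.7 on the first component.

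Amelx, which encodes the main enamel matrix protein, had 0.674, 23.8, 276.9 and 1.79 CPM in sensory nerve+ rats 1 to 4 and 1.36, 1.35, 28.6 and 1.77 CPM in sensory nerve− rats 1 to 4. The basal epithelial keratin Krt5 had 226.6 CPM in sensory nerve+ rat 3 and at most 6.93 CPM in the other 7 rats. For Amelx, sensory nerve+ rats 2 and 3 and sensory nerve− rat 3 were high, and the low rats of both groups overlapped. The enamel and dentin list (6 of 11 genes tested) had a median log2FC of −2.21, with 5 of 6 genes lower in the sensory nerve− group, and of −0.26 without sensory nerve+ rat 3. The oral epithelium list (8 of 26 genes tested) had a median of −0.46 with 6 of 8 lower, and −0.09 without that rat. Dsp, the desmosomal plaque protein desmoplakin, was at 57.7 CPM in sensory nerve+ rat 3 and between 0.281 and 2.42 CPM in all others. Its log2FC of −3.53 (SE 1.47, unadjusted p = 0.0416 from edgeR) became −0.05 without that rat.

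Sensory nerve+ rat 3 also stood at the end of the ranking for most genes that differed. Among the 152 genes with lower values in sensory nerve− rats at an unadjusted p under 0.05, it was the rat with the highest CPM in 127 (83.6%), and among the 63 higher genes it was the lowest in 46 (73.0%). Over all tested genes the shares were 27.5% and 21.6%. These shares are not a like baseline, because genes chosen as lower in sensory nerve− rats mostly have a sensory nerve+ rat highest. Over all tested genes, sensory nerve+ rats 1 to 4 were the highest in 314, 604, 4054 and 1765 genes. They were the lowest in 656, 782, 3173 and 1978. Rat 3 was thus the most frequent of that group at both ends without that choice. Because a gene with 1 extreme rat also has a larger spread, leaving out a rat can move the count either way. Without sensory nerve+ rat 3 there were 73 genes at an unadjusted p under 0.05, and without sensory nerve− rat 1, the rat richest in muscle genes, there were 1604. Leaving out both of these rats, an alternative chosen after the data had been seen, gave 1834 genes, 860 higher and 974 lower, again with 0 genes at an adjusted p under 0.05 (edgeR).

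**Figure D2:**
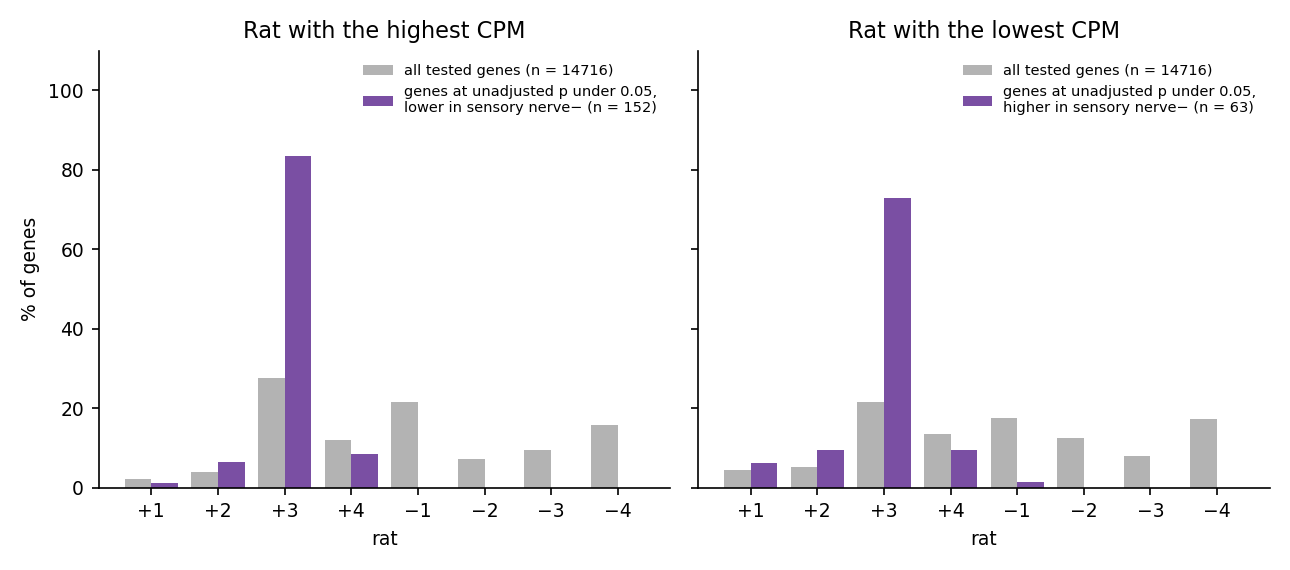
Share of genes (%) in which each of the 8 rats had the highest CPM (left) or the lowest CPM (right), for all 14716 tested genes in grey and for genes at an unadjusted p under 0.05 in purple (152 lower genes on the left, 63 higher genes on the right). Sensory nerve+ rat 3 holds 83.6% and 73.0% of the purple genes against 27.5% and 21.6% of the grey ones. The purple genes were chosen by direction, which itself puts sensory nerve+ rats at these ends, so grey is not a like baseline.

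Blood and muscle genes also differed between rats. The mean log2 CPM of a list ran from 2.33 to 8.64 over the 8 rats for erythroid genes and from 6.37 to 10.7 for skeletal muscle genes, beside −0.85 to 5.53 for enamel and dentin genes. The alpha-globin gene Hba-a1, which shares reads with its near-identical copy Hba-a2 and is therefore uncertain as a single gene, had 1655, 21752, 1339 and 180008 CPM in sensory nerve+ rats 1 to 4 and 7353, 42855, 7860 and 73583 CPM in sensory nerve− rats 1 to 4. It made up 13.1% of all counts of sensory nerve+ rat 4. The 16 erythroid genes together took between 0.339% and 26.8% of the counts of a sensory nerve+ rat and between 1.59% and 13.4% of those of a sensory nerve− rat. All 16 had a log2FC below 0, with a median of −0.62, and 0 of them reached an unadjusted p under 0.05. Without sensory nerve+ rat 4 the median was 1.92, so the sign of this median rested on that rat. The mean log2 CPM of the list went the other way, with 5.62 in sensory nerve− and 4.91 in sensory nerve+ rats. For the neutrophil list it was likewise higher in sensory nerve− rats (2.59 and 2.11). The median log2FC of the neutrophil list (13 of 18 tested) went from −0.24 to 1.61 without sensory nerve+ rat 4. That of the lymphocyte and plasma cell list (21 tested) went from 0.18 to 1.08. S100a8, an abundant protein of neutrophil granulocytes, had 1.40, 14.1, 2.44 and 116 CPM in the sensory nerve+ rats and 5.50, 44.6, 5.86 and 26.4 CPM in the sensory nerve− rats, and its 4 highest values were in the same 4 rats as those of Hba-a1.

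Acta1, the actin of skeletal muscle, had 4794, 8908, 2487 and 5125 CPM in the sensory nerve+ rats and 14185, 1307, 2188 and 509 CPM in the sensory nerve− rats. Sensory nerve− rat 1 was the highest of all and the other 3 sensory nerve− rats were the lowest of all. The 25 muscle genes together made up 7.96% of the counts of sensory nerve− rat 1, 0.395% to 1.58% in the other sensory nerve− rats and 1.5% to 4.10% in the sensory nerve+ rats. Of the 25, 21 had a log2FC below 0, with a median log2FC of −0.11 and 0 at an unadjusted p under 0.05. Without sensory nerve− rat 1 the median was −1.60. The 17 myogenic regulators, among them Myod1, the transcription factor of muscle commitment, had medians of −0.11 and −0.78 with and without that rat.

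As a mean, the muscle list was highest in sensory nerve− rat 1, though single members such as Myh7 were highest in another rat. The stretches just before the start sites are shown for the first 2 genes of the list. Promoters were taken from RefSeq, and 23 of the 25 muscle genes had an entry. The 250 bases before the start were searched for CAGCTG, an E-box of the kind bound by MyoD and its relatives, which reads the same on both strands. It was present in 8 of the 23 muscle genes (34.8%) and in 3274 of all 27457 promoters (11.9%). The motif of MEF2, another muscle factor, in its 10-base palindromic form with any 4 bases in the middle, was in 1 of 23 (4.35%) and in 3.43% of all. For the erythroid list, of which 10 genes had an entry, AGATAA, 1 form of the GATA motif, was searched on both strands. It was in 1 gene (10.0%), Alas2, and in 10.1% of all promoters. Other forms of the GATA motif were not searched, so these shares do not cover them. A match of letters is a description and not a binding site. Capitals mark CAGCTG in the stretches before the start sites of Acta1 and Ckm.
Acta1 (GRCr8, chr19:68784195-68784444, minus strand): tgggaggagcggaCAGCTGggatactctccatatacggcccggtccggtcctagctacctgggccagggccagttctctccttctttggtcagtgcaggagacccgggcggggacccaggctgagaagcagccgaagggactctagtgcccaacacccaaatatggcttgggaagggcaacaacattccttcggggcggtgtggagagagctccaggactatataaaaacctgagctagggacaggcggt
Ckm (GRCr8, chr1:88189211-88189460, plus strand): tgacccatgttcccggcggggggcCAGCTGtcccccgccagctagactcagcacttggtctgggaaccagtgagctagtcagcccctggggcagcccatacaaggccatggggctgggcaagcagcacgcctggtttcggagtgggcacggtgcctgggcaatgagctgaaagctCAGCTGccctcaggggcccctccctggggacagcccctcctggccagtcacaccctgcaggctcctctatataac
Acta1 held the motif once and Ckm, the muscle creatine kinase, held it at 2 places. Ckm ranged from 773.7 to 3289.9 CPM in the sensory nerve+ rats and from 205 to 5738 CPM in the sensory nerve− rats.

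B4galt2, a galactosyltransferase that extends sugar chains of glycoproteins, was among the genes whose groups did not overlap. Its levels were 21.7, 21.4, 23.3 and 21.7 CPM in sensory nerve+ rats 1 to 4 and 15.4, 16.7, 12.3 and 13.2 CPM in sensory nerve− rats 1 to 4. The groups did not overlap, and the log2FC was −0.61 (SE 0.142, unadjusted p = 0.00232, adjusted p = 0.9997 from edgeR). Over the 8 fits that each leave out a rat the log2FC ran from −0.69 to −0.54, with an unadjusted p under 0.05 in 8 of 8 fits. Here and below, such fits reuse the rats by which a gene was chosen. They show dependence on single rats and are not independent support. Groups without overlap were seen in 112 of all tested genes (0.761%), 45 higher (0.306%) and 67 lower (0.455%) in the sensory nerve− rats. With arbitrary group labels, 4 against 4 rats would be separated completely in a fraction of 0.0286 of genes on average. Genes without overlap were thus fewer than chance alone gives on average, and the genes named below are a description.

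The 10 lower genes with the smallest p among those without overlap were Col2a1, B4galt2, Duox2, Tub, Wasf3, Gap43, LOC103694169, Myo15a, LOC689039 and Prdm6. Of these 10, 9 had an unadjusted p under 0.05 in every fit with 1 rat left out, although the genes were chosen for a small p in the same rats. Sensory nerve+ rat 3 was the highest rat in 6 of the 10. Col2a1 had 6.74, 19.9, 9.20 and 51.1 CPM in the sensory nerve+ rats and 2.13, 1.86, 1.00 and 3.06 CPM in the sensory nerve− rats. Duox2, a dual oxidase that releases hydrogen peroxide at epithelial surfaces, had 3.32, 2.71, 5.40 and 2.42 CPM against 1.30, 0.731, 1.48 and 1.22 CPM (log2FC −1.55, SE 0.370). Its values were low in every rat, yet the lowest sensory nerve+ rat lay above the highest sensory nerve− rat. Tub, a phosphoinositide-binding protein of neurons and primary cilia, had 4.41, 5.63, 8.12 and 6.91 CPM against 2.60, 3.09, 3.96 and 1.97 CPM (log2FC −1.10, SE 0.308). Wasf3, a WAVE protein that drives actin branching, had 1.30, 2.06, 10.4 and 1.88 CPM against 0.827, 0.731, 0.580 and 0.339 CPM (log2FC −2.65, SE 0.742). Its sensory nerve+ values were dominated by rat 3, without which the log2FC was −1.48. Prdm6, a transcriptional repressor of smooth muscle, had a log2FC of −0.86 (SE 0.281), and Myo15a, an unconventional myosin of hair cells, had −0.72 (SE 0.234).

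The 10 higher genes with the smallest p among those without overlap were LOC100361993, Nabp1, LOC120102963, LOC102555557, Kynu, Gdpd5, Slc22a18, Ccdc69, Fggy and Acsf3. Only LOC100361993 and Nabp1, 2 of the 10, kept an unadjusted p under 0.05 in every fit with 1 rat left out, and sensory nerve+ rat 3 was the lowest rat in 7 of the 10. Nabp1, a single-stranded DNA binding protein of the DNA damage response, had 37.0, 29.1, 15.6 and 25.2 CPM in the sensory nerve+ rats and 39.5, 51.1, 79.2 and 39.6 CPM in the sensory nerve− rats (log2FC 0.97, SE 0.316, unadjusted p = 0.0147 from edgeR). The margin between the groups was 37.0 against 39.5 CPM. Kynu, the kynureninase of tryptophan breakdown, was at most 1.29 CPM in any rat, with 0.363, 0.650, 0.282 and 0.449 CPM against 0.709, 0.731, 0.950 and 1.29 CPM (log2FC 1.07, SE 0.392). Gdpd5, a membrane glycerophosphodiesterase, had 23, 22.4, 17.9 and 21.7 CPM against 24.1, 26.3, 29.1 and 41.5 CPM (log2FC 0.51, SE 0.193). Acsf3, a mitochondrial malonyl-CoA synthetase, had the smallest difference of the 10 (log2FC 0.29, SE 0.119), with 19 to 22.6 CPM against 22.8 to 25.5 CPM.

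**Figure D3:**
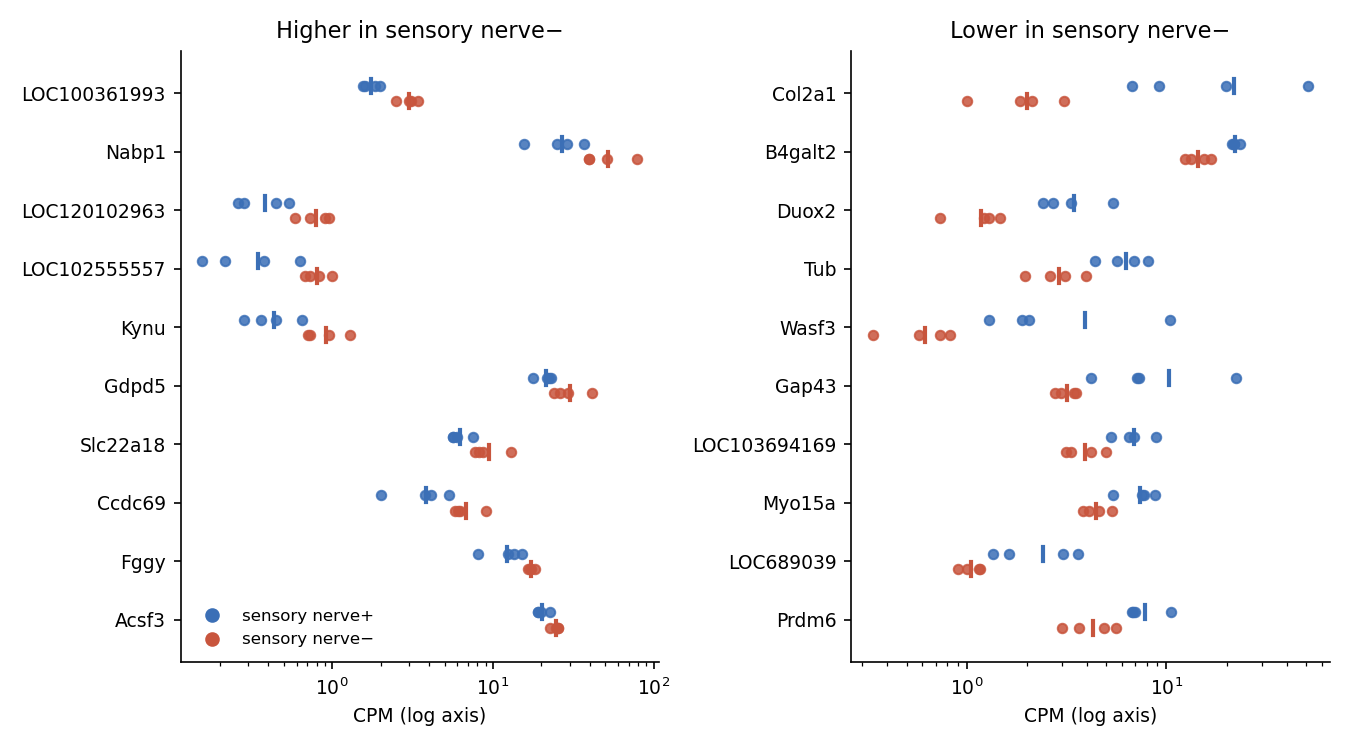
CPM (log axis) of the 10 higher (left) and 10 lower (right) genes with the smallest unadjusted p among those whose groups did not overlap. Each point is 1 rat (blue, sensory nerve+, and red, sensory nerve−) and vertical strokes are group means. B4galt2 is tight in both groups (21.4 to 23.3 and 12.3 to 16.7 CPM), whereas Wasf3 and Gap43 have 1 sensory nerve+ rat far to the right.

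Gene lists by tissue and function held 556 different tested genes. Of these, 17 (3.06%) had an unadjusted p under 0.05, beside 1.46% of all tested genes, and 1 gene, Gap43 (0.180%), had groups without overlap, beside 0.761%. Sensory nerve+ rat 3 was the highest rat in 10 of the 12 lower genes and the lowest rat in 3 of the 5 higher genes. In all 35 lists with at least 3 tested genes, the range of the mean log2 CPM over the sensory nerve− rats overlapped that of the sensory nerve+ rats. In 16 of the 35, the median log2FC changed sign in at least 1 fit with a rat left out.

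**Figure D4:**
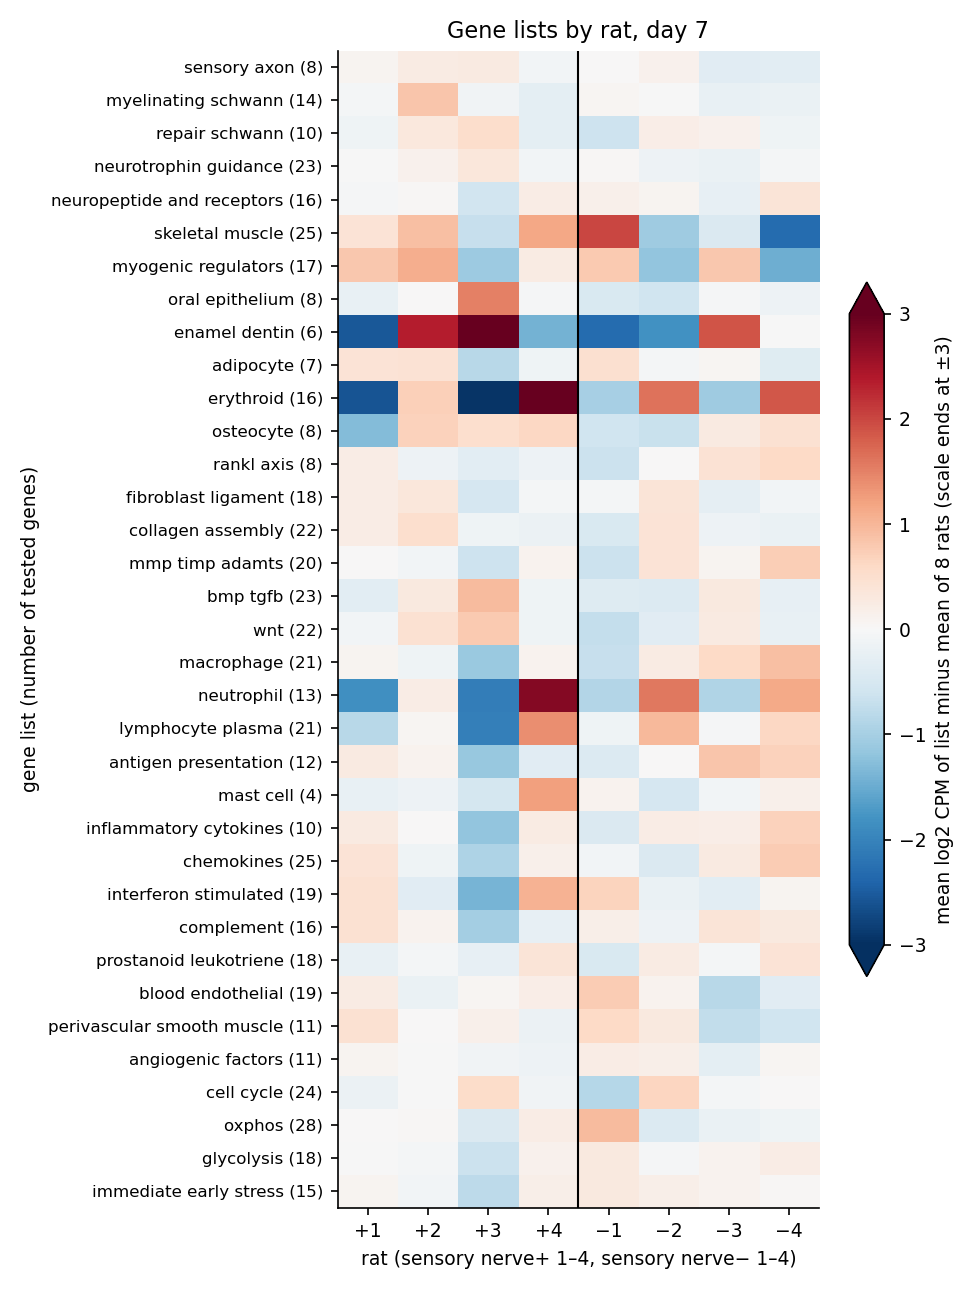
Mean log2 CPM of the tested genes of each list in each rat, minus the mean of the 8 rats (colour, scale ends at ±3), with sensory nerve+ rats left and sensory nerve− rats right of the line and the number of tested genes in brackets. Erythroid and neutrophil genes were highest in sensory nerve+ rat 4 and tooth genes in sensory nerve+ rat 3. Muscle genes were highest in sensory nerve− rat 1. Macrophage genes were highest in sensory nerve− rats 4 and 3 (mean log2 CPM 6.80 and 6.48). Sensory nerve− rat 2 (6.14) was close to sensory nerve+ rat 4 (6.00).

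Transcripts of the cut axons themselves were scarce in both groups. Of 20 genes of sensory axons, 8 passed the filter. The other 12 included Calca, the gene of CGRP, with 3, 4, 7 and 1 counts in sensory nerve+ rats 1 to 4 and 1, 1, 7 and 2 counts in sensory nerve− rats 1 to 4. The groups overlapped entirely at this depth, and a difference in Calca was not detectable. The remaining 11 genes, among them the nociceptor sodium channels Scn9a and Scn10a, had at most 25 counts in any rat, except Isl1 with 118 counts in sensory nerve+ rat 3 and at most 2 in any other. The heat-gated channel Trpv1 had 4.25, 3.95, 1.64 and 1.88 CPM in the sensory nerve+ rats and 5.26, 2.25, 4.38 and 1.49 CPM in the sensory nerve− rats (log2FC 0.19, SE 0.498).

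Gap43, the growth-associated protein of extending axons and of Schwann cells without axon contact, was the one listed gene whose groups did not overlap. It had 4.20, 7.31, 22.4 and 7.09 CPM in sensory nerve+ rats 1 to 4 and 3.43, 2.98, 3.53 and 2.78 CPM in sensory nerve− rats 1 to 4. Every sensory nerve− rat was below every sensory nerve+ rat, the nearest values being 3.53 and 4.20 CPM. The log2FC was −1.69 (SE 0.503, unadjusted p = 0.00953, adjusted p = 0.9997 from edgeR) and −0.97 without sensory nerve+ rat 3, with an unadjusted p under 0.05 in 8 of 8 fits with 1 rat left out. The other 7 tested axonal genes were 4 higher and 3 lower, and their log2FC lay between −0.63 (Tubb3, neuronal beta-tubulin) and 0.58 (Nefh, the heavy neurofilament).

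Myelinating Schwann cell genes (14 of 20 tested) had a median log2FC of −0.01, with 7 higher and 7 lower and 0 at an unadjusted p under 0.05. Genes of repair Schwann cells (10 of 14 tested), which appear after an axon is lost, had a median of −0.28 with 6 lower. Ngfr, the low-affinity neurotrophin receptor, had 6.27, 11.9, 48.6 and 1.70 CPM against 5.61, 6.13, 3.85 and 6.92 CPM (log2FC −1.61, SE 0.850). Sensory nerve+ rat 3 held the highest value, and without it the log2FC was −0.25.

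Neurotrophic and axon guidance genes, all 23 tested, had a median log2FC of −0.28 with 14 lower and 9 higher, and 3 of the lower genes had an unadjusted p under 0.05. The median was −0.0046 without sensory nerve+ rat 3. The 3 genes were Robo2, a receptor for Slit guidance proteins, Gdnf, a trophic factor for sensory and motor axons, and Gfra1, its receptor, which was named after its values had been seen. Robo2 had 10.6, 14.2, 21.1 and 7.18 CPM in the sensory nerve+ rats and 5.79, 8.04, 7.23 and 4.34 CPM in the sensory nerve− rats. The log2FC was −1.06 (SE 0.356, unadjusted p = 0.0165 from edgeR), between −1.25 and −0.76 with a rat left out and with an unadjusted p under 0.05 in 8 of 8 such fits, although sensory nerve+ rat 4 lay inside the range of the other group. Gdnf had 2.49, 3.57, 9.20 and 1.79 CPM against 1.77, 0.675, 2.27 and 0.679 CPM (log2FC −1.66, SE 0.638). Its log2FC was −0.97 without sensory nerve+ rat 3, and the unadjusted p was under 0.05 in 5 of 8 fits with a rat left out. Gfra1 had 29, 32.3, 22.3 and 10.7 CPM against 11.8, 13.1, 17.8 and 12.6 CPM (log2FC −0.77, SE 0.327). In both genes sensory nerve+ rat 4 lay inside or below the range of the sensory nerve− rats, and the other 3 sensory nerve+ rats lay above it.

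Neuropeptides and their receptors (16 of 23 tested) had a median log2FC of 0.15, with 9 higher and 7 lower and 0 at an unadjusted p under 0.05. Transcripts of Calcrl and Ramp1, parts of the CGRP receptor, were more abundant than Calca, which was at most 0.369 CPM in any rat. Calcrl, the receptor core, had 118, 74.1, 55.8 and 47.6 CPM in the sensory nerve+ rats and 108, 68.2, 76.0 and 57.2 CPM in the sensory nerve− rats (log2FC 0.07, SE 0.314). Ramp1, the partner that makes it a CGRP receptor, had 3.47 to 8.50 CPM against 6.98 to 14.1 CPM (log2FC 0.47, SE 0.348), with overlapping groups.

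Among the immune lists with a median above 0, macrophage genes had the largest. Of 21 tested genes, 18 had higher values in sensory nerve− rats, with a median log2FC of 0.71, and 0 had an unadjusted p under 0.05. Cd68, a lysosomal glycoprotein of macrophages and osteoclasts, had 469, 297, 111 and 281 CPM in sensory nerve+ rats 1 to 4 and 178, 454, 799.6 and 881 CPM in sensory nerve− rats 1 to 4 (log2FC 1.00, SE 0.560, unadjusted p = 0.111 from edgeR). Sensory nerve− rats 3 and 4 were above every sensory nerve+ rat, and sensory nerve− rat 1 was below 3 of them. Averaged over the list, log2 CPM was 5.97, 5.76, 4.78 and 6.00 in the sensory nerve+ rats and 5.21, 6.14, 6.48 and 6.80 in the sensory nerve− rats. Its low values were in sensory nerve+ rat 3, the rat rich in tooth genes, and in sensory nerve− rat 1, the rat rich in muscle genes, and the part of those tissues in the result was not tested. The median ran from 0.40 to 0.98 over the fits that each leave out 1 rat, and was 0.68 without both of those rats.

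Genes of antigen presentation by MHC class II were higher in 12 of 12, with a median log2FC of 0.59 and 0 at an unadjusted p under 0.05. Cd74, the invariant chain, had 1055, 827, 429 and 415 CPM in the sensory nerve+ rats and 512, 681, 1867 and 1131 CPM in the sensory nerve− rats (log2FC 0.62, SE 0.484). Complement genes were higher in 15 of 16 (median 0.39), with C3 at a log2FC of 0.45 (SE 0.529). In both lists the direction was shared by nearly all members while the rats of the groups overlapped. The medians stayed above 0 with each rat left out (0.26 to 0.86 and 0.17 to 0.56). Without both sensory nerve+ rat 3 and sensory nerve− rat 1 they were 0.50 and 0.13, the latter below its range with 1 rat left out.

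Chemokine genes (25 of 30 tested) had a median log2FC of 0.47 with 17 higher, and 2 of these had an unadjusted p under 0.05. The median was 0.12 without sensory nerve− rat 4. Ccl7, a monocyte attractant, had 12.9, 3.90, 6.71 and 4.93 CPM in the sensory nerve+ rats and 5.91, 14.1, 16.3 and 41.1 CPM in the sensory nerve− rats (log2FC 1.44, SE 0.606, unadjusted p = 0.0438 from edgeR). Without that same rat 4 its log2FC was 0.77, and the unadjusted p was under 0.05 in 2 of 8 fits with a rat left out. Ccl4, an attractant of monocytes and T cells, had 1.04, 0.866, 0.563 and 0.718 CPM against 1.00, 1.24, 4.17 and 1.36 CPM (log2FC 1.28, SE 0.522), its difference resting mainly on sensory nerve− rat 3, without which the log2FC was 0.59. Ccl2, the best-known monocyte attractant, had a log2FC of 0.79 (SE 0.437). Inflammatory cytokines (10 of 18 tested) had a median of 0.47 with 7 higher and 0 at an unadjusted p under 0.05, and a median of 0.21 without sensory nerve+ rat 3. Il1b had 7.88, 11.8, 1.17 and 35.3 CPM against 12.7, 33.4, 6.12 and 22.7 CPM. Interferon-stimulated genes (19 tested, median −0.08, 7 higher), genes of prostanoid and leukotriene synthesis (18 tested, median 0.11, 10 higher) and mast cell genes (4 tested, median −0.94, 1 higher) had no gene higher at an unadjusted p under 0.05. In the mast cell list Kit, the stem cell factor receptor, was lower (log2FC −2.51, SE 1.04, unadjusted p = 0.0414 from edgeR), with 294 CPM in sensory nerve+ rat 3 and 9.64 to 23.9 CPM in the other rats, while the mast cell protease Cpa3 was at 0.751 CPM in that same rat. Without it the log2FC of Kit was −0.29, and the median of the mast cell list was 0.70 without sensory nerve+ rat 4.

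Matrix genes went in both directions. Of 22 genes of collagens and their assembly, 18 had a log2FC below 0, with a median log2FC of −0.16, and of −0.0025 without sensory nerve− rat 1. Col1a1 itself had 9675, 18985, 6886 and 20178 CPM in the sensory nerve+ rats and 5514, 23538, 11751 and 8965 CPM in the sensory nerve− rats (log2FC −0.16, SE 0.651). The member at an unadjusted p under 0.05 was Tnc, tenascin-C, a glycoprotein of wounds and developing connective tissue. Tnc had 1574, 2379, 3021 and 502 CPM in sensory nerve+ rats 1 to 4 and 721, 824.5, 455 and 358.6 CPM in sensory nerve− rats 1 to 4. Sensory nerve+ rats 1, 2 and 3 were above every sensory nerve− rat and rat 4 was among them. The log2FC was −1.66 (SE 0.543, unadjusted p = 0.0148 from edgeR), between −1.96 and −1.34 with a rat left out, with an unadjusted p under 0.05 in 8 of 8 fits. Fibroblast and ligament genes (18 tested) had a median of −0.10, and Postn, periostin, a log2FC of −0.04 (SE 0.468).

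Matrix metalloproteinases, their inhibitors and relatives (20 of 21 tested) were higher in 16, with a median log2FC of 0.27. The one at an unadjusted p under 0.05 was the stromelysin Mmp3, with 7.78, 4.98, 5.49 and 1.88 CPM against 2.13, 10.1, 15.7 and 58.1 CPM. Sensory nerve− rat 4 held the highest value, and without it the log2FC went from 2.08 to 0.88. Mmp13, a collagenase of bone and cartilage, had 135, 100.5, 64.9 and 504 CPM against 26.4, 556, 309 and 794 CPM (log2FC 1.07, SE 0.951). The RANKL axis, which controls the formation of osteoclasts, had 6 of 8 genes higher (median 0.37), with RANKL itself, Tnfsf11, at 4.51, 2.33, 1.55 and 3.05 CPM against 1.06, 3.04, 4.70 and 13.8 CPM (log2FC 0.98, SE 0.717). The median of the list was 0.06 and the log2FC of Tnfsf11 was 0.04 without sensory nerve− rat 4, its highest rat. Its member Lgr4, a receptor for R-spondins that also binds RANKL, was lower (log2FC −0.72, SE 0.291, unadjusted p = 0.0372 from edgeR), with 51.6, 63.1, 73.3 and 42.4 CPM against 48.5, 30.9, 40.8 and 19.6 CPM, and kept an unadjusted p under 0.05 in 3 of 8 fits with a rat left out. Osteocyte genes (8 of 10 tested) had a median of −0.52 with 5 lower, and the osteocyte matrix protein Dmp1 a log2FC of 0.00 (SE 0.928).

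Wnt ligands and secreted inhibitors (22 of 23 tested) were lower in 19, with a median log2FC of −0.39, and 2 of these, Dkk2 and Wnt2, had an unadjusted p under 0.05. The BMP and TGF-beta list (23 tested) was lower in 17, with a median of −0.26 and with Sostdc1 and Bambi at an unadjusted p under 0.05. Sostdc1, an antagonist of BMP and Wnt signals in tooth buds, had 28.8 CPM in sensory nerve+ rat 3 and 0.225 to 2.51 CPM in the other rats. Bambi, a decoy receptor for TGF-beta, had 120.2 CPM in that rat and 3.47 to 12.3 CPM in the others. Without sensory nerve+ rat 3 their log2FC went from −3.21 to −0.59 and from −2.37 to −0.23. Dkk2, a Wnt antagonist, was likewise highest in that rat (10.2 CPM, and 0.475 to 2.23 CPM in the others) and went from −1.71 to −0.64. Wnt2 was below 1 CPM in all rats, with 0.933, 0.812, 0.798 and 0.897 CPM against 0.827, 0.225, 0.317 and 0.272 CPM, and its unadjusted p was under 0.05 in 1 of 8 fits with a rat left out. Without both sensory nerve+ rat 3 and sensory nerve− rat 1, the Wnt list had a median of 0.00.

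Vessel and cell state genes completed the picture. Blood endothelial genes (19 tested) had a median log2FC of 0.05 with 12 higher, and Tie1, an endothelial receptor kinase, had 198, 144, 132 and 139.96 CPM against 195, 213, 221 and 180.5 CPM (log2FC 0.40, SE 0.167, unadjusted p = 0.0436 from edgeR), with an unadjusted p under 0.05 in 2 of 8 fits with a rat left out. The endothelial list had a median of −0.30 without sensory nerve− rat 1. Perivascular and smooth muscle genes (11 tested) had a median of −0.13, angiogenic factors (11 of 13 tested) of 0.13 and adipocyte genes (7 of 13 tested) of 0.20, each with 0 at an unadjusted p under 0.05. Of the salivary gland list 1 gene of 9 was tested. Cell cycle genes (24 tested) had a median of −0.03, and the proliferation marker Mki67 a log2FC of 0.06 (SE 0.419). Immediate early and stress genes (15 of 16 tested) had a median of 0.24 with 12 higher, and of 0.06 without sensory nerve+ rat 3.

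Glycolysis genes were higher in 18 of 18 and subunits of oxidative phosphorylation in 28 of 28, with medians of 0.29 and 0.18. The latter depended on the muscle-rich rat. Ndufs1, a core subunit of complex I, had 182, 184, 116 and 148 CPM in the sensory nerve+ rats and 448, 108, 116 and 91.2 CPM in the sensory nerve− rats. Without sensory nerve− rat 1 the oxidative phosphorylation median was −0.23, while the glycolysis median lay between 0.19 and 0.40 over the fits with 1 rat left out and was 0.10 without both rats. In the glycolysis list the lactate exporter Slc16a3 had 27, 22.7, 10.7 and 35.7 CPM against 37.1, 33.2, 47.6 and 64.8 CPM (log2FC 0.93, SE 0.363, unadjusted p = 0.0329 from edgeR, under 0.05 in 5 of 8 fits with a rat left out), and Slc2a1, the glucose transporter GLUT1, had 32.8, 26.1, 25.3 and 26.8 CPM against 14.6, 41.8, 66.3 and 55.2 CPM (log2FC 0.68, SE 0.394). Sensory nerve− rats 2, 3 and 4 exceeded every sensory nerve+ rat for Slc2a1, and sensory nerve− rat 1 was the lowest of all.

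The same contrast was then read at the other days, in other rats. At day 3, 0 of 14695 genes had an adjusted p under 0.05 and 122 (0.83%) an unadjusted p under 0.05, and at day 14 these were 0 and 1362 of 14610 genes (9.32%, edgeR). Of 31 genes chosen at day 7 for a small p and also tested at both other days, 17 had the same sign at day 3 and 18 at day 14. At an unadjusted p under 0.05 there were 0 of the 31 at day 3 and 3 at day 14, which were Sostdc1 (log2FC −4.67), Ccl4 (1.24) and, in the opposite direction to day 7, Tub (0.77). Gap43 was lower in the sensory nerve− group at all 3 days, with log2FC of −0.67 at day 3, −1.69 at day 7 and −0.67 at day 14 (SE 0.65, 0.503 and 0.593). Tnc had −0.82, −1.66 and −0.19, and B4galt2 −0.22, −0.61 and 0.11. Robo2, in contrast, had 0.31, −1.06 and 0.37, and Col2a1 −0.92, −3.43 and 3.09.

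**Figure D5:**
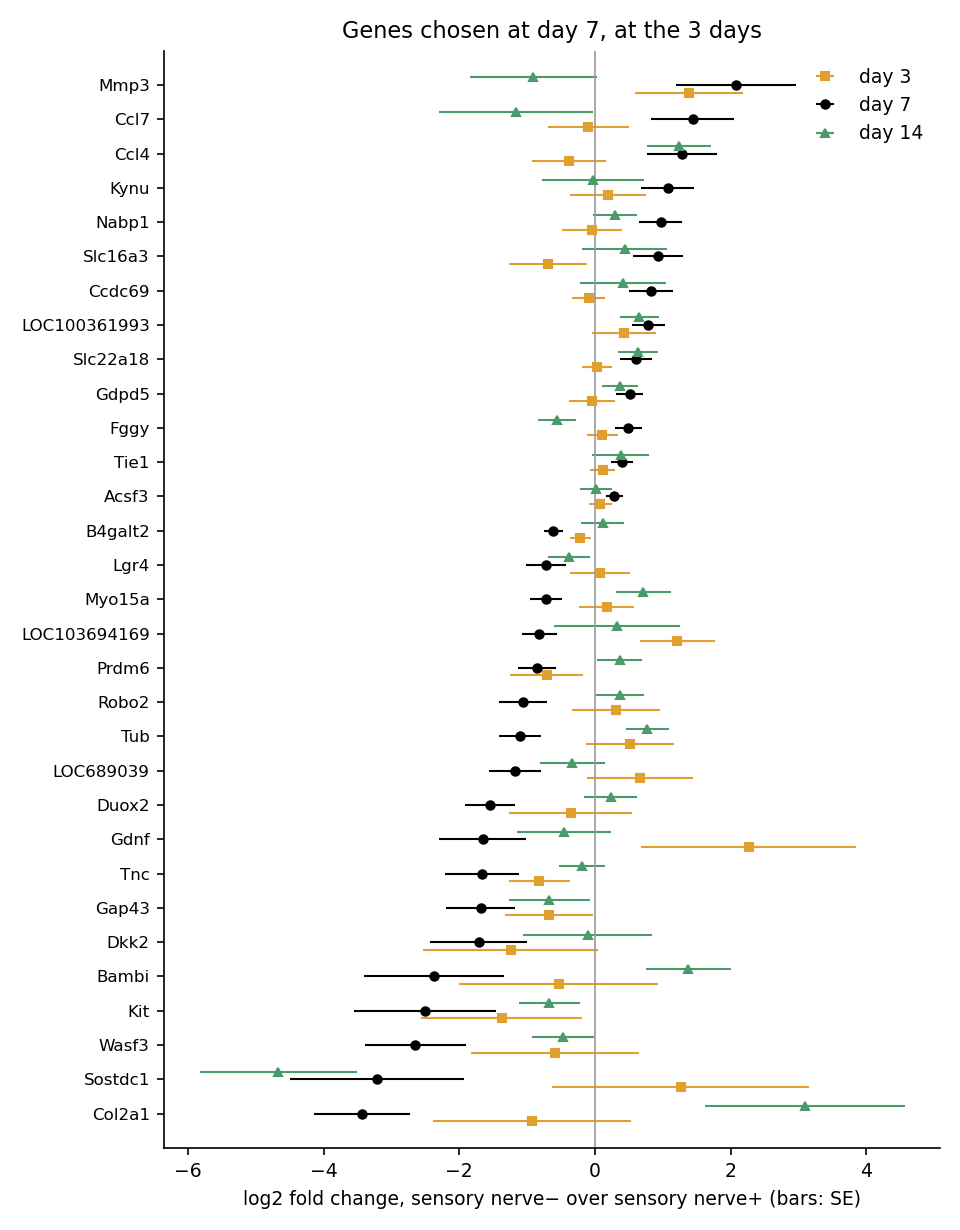
Log2FC of sensory nerve− over sensory nerve+ (bars, SE) at day 3 (squares), day 7 (circles) and day 14 (triangles) for the 31 genes chosen at day 7 that were tested at all 3 days. Values at day 7 lie far from 0 by choice of the genes, and 17 of them at day 3 and 18 at day 14 fall on the same side of 0.

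The difference between the days was tested as an interaction in a fit of all 23 rats. Only the sensory nerve− rats of day 7 came from a separate table. A difference between days and one between tables therefore cannot be told apart in this test. Against day 3, 0 of 15858 genes had an adjusted p under 0.05 and 164 (1.03%) an unadjusted p under 0.05, and against day 14 these were 0 and 611 genes (3.85%, edgeR). DESeq2 called 6 and 2 genes. The genes named next were chosen for their difference in the same day 7 rats. Their unadjusted p-values are thus a description and not independent support. For Col2a1 the day 7 log2FC was lower than that of day 14 by 6.55 (unadjusted p = 0.00172, adjusted p = 0.884 from edgeR). For Tub the difference was −1.63 against day 3 and −1.88 against day 14 (unadjusted p = 0.0193 and 0.00618, adjusted p = 0.99998 and 0.884 from edgeR). For Gap43 it was −1.01 and −0.99 (unadjusted p = 0.267 and 0.251 from edgeR), so its effect at day 7 was not shown to differ from that of the other days.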

How the data were processed

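RNA of periodontal healing tissue from 8 rats of day 7 (4 sensory nerve+ and 4 sensory nerve−) was analysed, with 15 rats of days 3 and 14 for comparison. Per the submitters' processing notes the reads were aligned to mRatBN7.2, with HISAT and Bowtie2 listed as tools. The authors deposited an expected count per gene, in 2 tables with the same genes, and the counting program is not given in the sources used here. Expected counts were rounded to whole numbers, filtered with filterByExpr, scaled by TMM and tested with edgeR 4.0.16 (quasi-likelihood test, limma 3.58.1) with Benjamini-Hochberg adjustment and a threshold of 0.05. Standard errors were derived from the F statistic. DESeq2 1.42.0 was an alternative, run on the genes that passed the filter. Log2 CPM used a prior count of 2. Analyses ran in R 4.3.3 and Python 3.11.15, and figures were drawn with matplotlib 3.10.9. The procedure was tested on simulated data.

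Groups and replicate numbers came from the sample labels. For the sensory nerve− rats of day 7 the day was in the title alone. Each library was counted as 1 rat, and p-values measure the spread between these libraries. Library totals of 15331439 to 18092134 counts limit what can be seen for genes with few counts.

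The genes named were Col2a1, called by DESeq2, the 10 higher and 10 lower genes with the smallest unadjusted p among genes whose groups did not overlap, and, for each of 36 hand-written lists, its first gene and up to 2 members with the smallest unadjusted p under 0.05. Marker genes of cell types were fixed as well. Some genes that these rules name are not reported here. Other genes named in the text were chosen after their values had been seen. The comparison, the lists and these genes were chosen with earlier results of these data known, so lists are described by counts and medians without a test. Alternatives were RLE scaling, scaling by the library total, no filter and a stricter filter, the replicate number as a block, all 23 rats in 1 fit, each rat left out in turn and, added after the data had been seen, 2 rats left out together. Promoter sequences are from RefSeq (GRCr8), matched by gene identifier. Because the reads were aligned to another build, no other coordinates are given.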

Additional observations from a re-analysis of the deposited data

Results flagged for a closer look

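Of 208 groups of 4 values checked (library totals, list levels and named genes), 11 had 1 rat far from the other 3 by Dixon's criterion, and chance flags about 1 group in 20. Of these 11, 5 were sensory nerve+ rat 3. In that rat the oral epithelium list had a mean log2 CPM of 3.19 (1.46 to 1.69 in the other sensory nerve+ rats), Dsp 57.7 CPM (1.04 to 1.95), Bmp2, a bone morphogenetic protein, 90.7 CPM (5.20 to 7.18), Ptgs2, the inducible cyclooxygenase, 2.11 CPM (0.622 to 0.704) and Myod1 4.65 CPM (25 to 35.1). The osteocyte list was low in sensory nerve+ rat 1, with a mean log2 CPM of 2.14 (3.95 to 4.15 in the others), and Prdm6 was high in sensory nerve+ rat 2, with 10.6 CPM (6.74 to 6.99).

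Among the sensory nerve− rats, Ndufs1 had 448.1 CPM in rat 1 (91.2 to 116 in the others), Ccdc69 9.06 CPM in rat 2 (5.77 to 6.23), and rat 3 had 28.6 CPM of Amelx (1.35 to 1.77) and 10.8 CPM of Bambi (5.57 to 5.91).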

How the results depend on the processing

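The count of 0 genes at an adjusted p under 0.05 was unchanged under RLE scaling, scaling by the library total, no filter, a stricter filter, the replicate block, all 23 rats in 1 fit, each of the 8 fits with 1 rat left out and the fit without 2 rats, and was 1 with DESeq2 (Col2a1, log2 fold change −3.43, adjusted p = 0.00394 from DESeq2 and 0.9997 from edgeR). DESeq2 called 6 genes for the interaction with day 3 and 2 for that with day 14, where edgeR called 0. The 215 genes at an unadjusted p under 0.05 became 405 without a filter, 128 with a stricter one and 415 with all 23 rats in 1 fit, and 59 to 1604 with 1 rat left out, the lowest without sensory nerve− rat 4 and the highest without sensory nerve− rat 1. Without sensory nerve+ rats 1, 3 and 4 in turn it was 487, 73 and 466, and without sensory nerve− rat 3 it was 128. Without both sensory nerve+ rat 3 and sensory nerve− rat 1 it was 1834. The no-filter and stricter fits tested 19305 and 11884 genes, and the cause of the other changes was not tested.

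Rats with the same replicate number deviated from their group means with correlations of 0.153, 0.031, 0.153 and 0.336 (mean 0.168, and −0.058 for other pairs). These values do not decide whether the numbers mark pairs. The labels state no pairing, and the main fit took none. With the replicate number as a block 0 genes were called and 193 had an unadjusted p under 0.05. No named gene at a small p changed sign under any alternative run. With 4 rats per group, depth allowed no statement on axonal genes with a few counts, such as Calca.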

Other observations

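Vegfa, the main angiogenic factor, had 203, 139.8, 257 and 132 CPM in sensory nerve+ rats 1 to 4 and 689, 118, 81.5 and 125 CPM in sensory nerve− rats 1 to 4, so sensory nerve− rat 1, the rat richest in muscle genes, stood above the other 7. The tendon and ligament gene Tnmd had 21, 25.7, 2.06 and 38.8 CPM in the sensory nerve+ rats and 111, 123, 9.65 and 72.4 CPM in the sensory nerve− rats (log2 fold change 1.86, SE 0.902, unadjusted p = 0.0723 from edgeR). The lowest value of each group was in rat 3, a rat with high Amelx in both groups. Sensory nerve+ rat 2 also had high Amelx (23.8 CPM), yet its Tnmd was not low in its group. Arg1, the arginase of wound macrophages, had 3.68, 8.72, 4.36 and 8.43 CPM in the sensory nerve+ rats and 2.36, 26.9, 11.4 and 29.8 CPM in the sensory nerve− rats (log2 fold change 1.49, SE 0.692, unadjusted p = 0.0626 from edgeR), with sensory nerve− rat 1 the lowest of the 8 and the other sensory nerve− rats the 3 highest. All 3 genes were chosen after their values had been seen.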
